A study of Mus musculus with 8 samples.

Results

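Nuclear genes whose proteins copy or transcribe mitochondrial DNA, or stabilise its transcripts, were followed in sorted mouse haematopoietic stem cells (HSCs). They were chosen by symbol, as the 10 of 55487 annotated genes in the count files named Tfam, Tfb1m, Tfb2m, Polrmt, Tefm, Lrpprc, Slirp, Twnk, Polg and Ssbp1. The study compared 4 libraries labelled NTC, a non-target control, with 4 labelled miR652-KD, in which the microRNA miR-652 was knocked down. Strain, age, sex, the knockdown method and the sort gate are not stated in the labels, and neither is whether replicates came from separate animals, so p-values measure only how these libraries scatter, and that scatter may be technical. Libraries were made by Smart-seq2, which copies polyadenylated RNA of small cell inputs into full-length cDNA, amplifies it and cuts it with a transposase. Counts assigned to genes ran from 14017632 to 19894821 per library. Levels are given as CPM, the reads of a gene scaled to the same fixed total in every library.

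Mitochondria keep a small circular genome that encodes respiratory chain subunits and the RNAs of their own ribosome. All proteins that read and copy it come from nuclear genes. TFAM coats and bends the molecule, POLRMT transcribes it from promoters opened with the help of TFB2M, TEFM keeps the polymerase moving, and the LRPPRC and SLIRP complex protects the resulting messenger RNAs. The helicase Twinkle (Twnk), the polymerase POLG and the strand-binding protein SSBP1 replicate it. HSCs are known to rest much on glycolysis and to keep respiration low.

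The sequence of the targeted microRNA is shown first because the seed, bases 2 to 8 and in capitals, is the part that pairs with messenger RNAs. The mature arms lie on chromosome X (RefSeq, GRCm38.p6, plus strand), inside an intron of Tmem164 (GENCODE M21), at 142739060 to 142739080 for the 3p arm and 142739020 to 142739043 for the 5p arm.
mmu-miR-652-3p: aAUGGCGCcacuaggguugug
mmu-miR-652-5p: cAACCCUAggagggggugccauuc

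The mature microRNA was not measured in these libraries, so the knockdown itself could not be checked. The host gene Tmem164 stood at 102 ± 28.4 CPM in NTC and 69.8 ± 12.0 CPM after knockdown (SD, n = 4), with overlap, and the difference was -0.54 on the log2 scale (edgeR adjusted p = 0.803).

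The letters complementary to these seeds, GCGCCAT for the 3p arm and TAGGGTT for the 5p arm, were sought in the longest annotated 3′ UTR of each gene (sense strand only). GCGCCAT occurred in 1 of the 10 genes, Polg, and in 2.06% of 21110 protein-coding genes. TAGGGTT occurred in 1 of 10, Twnk, and in 7.5% of the same genes. The match in Polg is on chromosome 7 from 79448377 to 79448383 (GRCm38, minus strand), and that in Twnk is on chromosome 19 from 45012219 to 45012225 (plus strand). Both are printed here with 11 neighbouring bases on either side and the match in capitals. A match describes these letters and not a bound site.
Polg: acccttatggaGCGCCATttccactcttg
Twnk: gtttttccagaTAGGGTTtcttctctgta

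Promoters of 3 of these genes are shown because they differ in the direction of the values given further on. Tefm had lower values in miR652-KD, Tfb2m had a mean above that of NTC with overlap, and Tfam lay between. None of these differences passed over all genes. Each run covers 250 bases before and 50 after the RefSeq start (GRCm38.p6), on the gene's own strand: chr11:80142104-80142403 for Tefm, chr1:179546227-179546526 for Tfb2m and chr10:71237995-71238294 for Tfam, all on the minus strand. Capitals mark the core letters bound by ETS factors such as GABP, CCGGAAG, and by the respiratory regulator NRF1, GCGCATGC, on either strand.
Tefm: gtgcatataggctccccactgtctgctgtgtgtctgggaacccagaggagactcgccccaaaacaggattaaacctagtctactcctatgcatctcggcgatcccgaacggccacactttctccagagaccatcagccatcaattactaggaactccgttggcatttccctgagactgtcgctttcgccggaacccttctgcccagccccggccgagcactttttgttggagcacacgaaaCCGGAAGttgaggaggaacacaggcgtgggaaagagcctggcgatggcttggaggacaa
Tfb2m: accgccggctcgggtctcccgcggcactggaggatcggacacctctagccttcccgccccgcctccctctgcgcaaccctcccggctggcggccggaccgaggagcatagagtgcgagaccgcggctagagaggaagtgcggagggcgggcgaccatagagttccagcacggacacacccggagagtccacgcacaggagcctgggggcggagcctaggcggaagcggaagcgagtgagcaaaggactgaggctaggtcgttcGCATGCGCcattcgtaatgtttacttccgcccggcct
Tfam: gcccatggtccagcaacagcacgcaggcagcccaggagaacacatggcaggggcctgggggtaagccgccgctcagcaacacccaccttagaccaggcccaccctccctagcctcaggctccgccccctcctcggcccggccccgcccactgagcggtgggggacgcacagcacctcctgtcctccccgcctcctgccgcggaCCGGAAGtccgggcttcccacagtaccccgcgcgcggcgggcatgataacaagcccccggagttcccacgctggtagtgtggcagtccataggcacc

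The 10 genes had 11 promoter windows. CCGGAAG was present in 7 of the 11 (in Polg, Polrmt, Slirp, Ssbp1, Tefm, Tfam and Twnk), against 8.86% of 32851 RefSeq windows of 300 bases. Of the windows of Twnk, chr19:45006308-45006607 held CCGGAAG and chr19:45005413-45005712 did not. In Tefm it began 9 bases before the start, in Tfam 47 bases before it. GCGCATGC was present in 2 of the 11 windows, those of Polrmt and Tfb2m, against 2.71% of all windows, and in Tfb2m it began at base 14 of the transcript. The windows of Tfb1m and Lrpprc held neither. Among tested genes with CCGGAAG the log2 differences, miR652-KD relative to NTC, ran from -0.91 in Tefm to 0.24 in Twnk. With GCGCATGC they were -0.44 in Polrmt, which held both cores, and 0.31 in Tfb2m. A link between these letters and the direction was not tested.

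How well each gene can be counted differed widely. Slirp (ENSMUSG00000021040.15, chromosome 12, 87443896 to 87452206, mm10, plus strand) encodes the small RNA-binding partner of LRPPRC. It had 1, 0, 7 and 0 reads in NTC replicates 1 to 4 and 0 in every miR652-KD library, which by counting alone allows up to 0.151 to 0.204 CPM per miR652-KD library. Of its 3104 exon bases, 2914 lie under exons of Snw1 and 122 under exons of Alkbh1, genes annotated on the opposite strand, and 68 bases (2.19%) lie under no other gene. The strand setting of the counting is not given in the sources used here, and reads that cannot be assigned to 1 gene go to a separate ambiguous line, which held 8.94% to 12.3% of reads in these files. Snw1, a splicing factor, stood at 110 ± 24.5 CPM in NTC and 128 ± 19.3 CPM after knockdown (SD, n = 4), and Alkbh1, a nucleic acid demethylase, at 76.6 ± 4.83 and 62.5 ± 14.8 CPM. The near absence of Slirp reads is therefore no measure of Slirp RNA, and no ratio of Slirp to Lrpprc was computed.

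**Figure D1:**
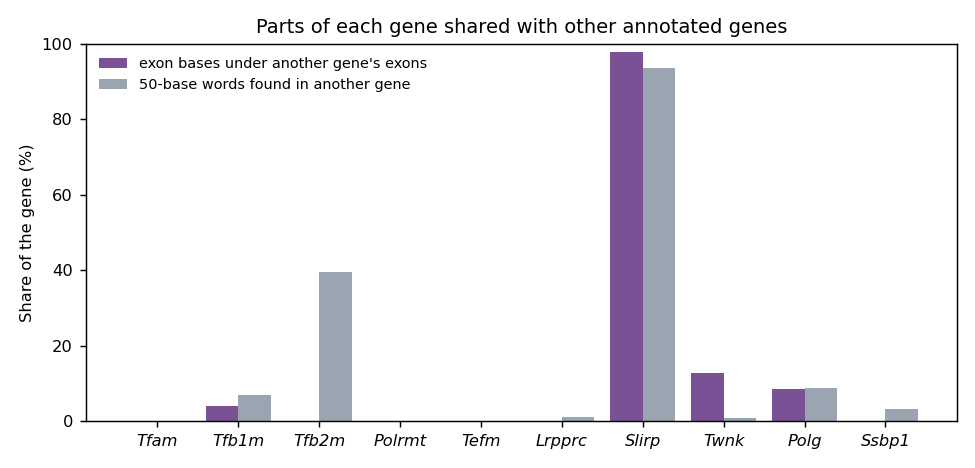
Share of each gene held in common with other annotated genes, in percent. Purple bars give exon bases lying under exons of another gene on either strand, and grey bars the share of 50-base words of the principal transcript that also occur in a transcript of another gene. Slirp stands alone with 97.8% of exon bases shared, while Polrmt and Tefm share none.

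The other 9 genes were countable, with smaller shared parts. Twnk shares 12.6% of its exon bases with Mrpl43, Polg 8.57% with Fanci, and Tfb1m 3.94% with Tiam2. Among 50-base words of the principal transcript, 39.6% of those of Tfb2m also occur in the annotated gene Gm1818, which itself stood at 3.08 ± 0.842 CPM in NTC and 3.95 ± 0.887 CPM after knockdown (SD, n = 4). This makes counts of Tfb2m less certain, and how many of its reads are affected was not examined. In Ssbp1 the corresponding share was 3.17%, with Gm12115, and in Lrpprc 1.01%.

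Across all genes, 6 of 14360 tested passed the threshold of an adjusted p below 0.05 (edgeR quasi-likelihood test, Benjamini-Hochberg adjustment), a background of 0.0418%, and none of the 9 tested factors did. DESeq2 and limma-voom also called 0 of the 9. At an unadjusted p below 0.05 stood 1 of the 9, Tefm, against 5.99% of all genes, or 3.09% when only genes lower in miR652-KD are counted. Groups failed to overlap in CPM for 1 of the 9, again Tefm, against 4.5% of all genes, or 2.15% on the lower side. With 1 gene of 9, these shares do not set the factors apart from other genes. Of the 9 log2 differences 4 lay above 0 and 5 below it, and their median was -0.05 beside -0.00434 over all genes.

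**Figure D2:**
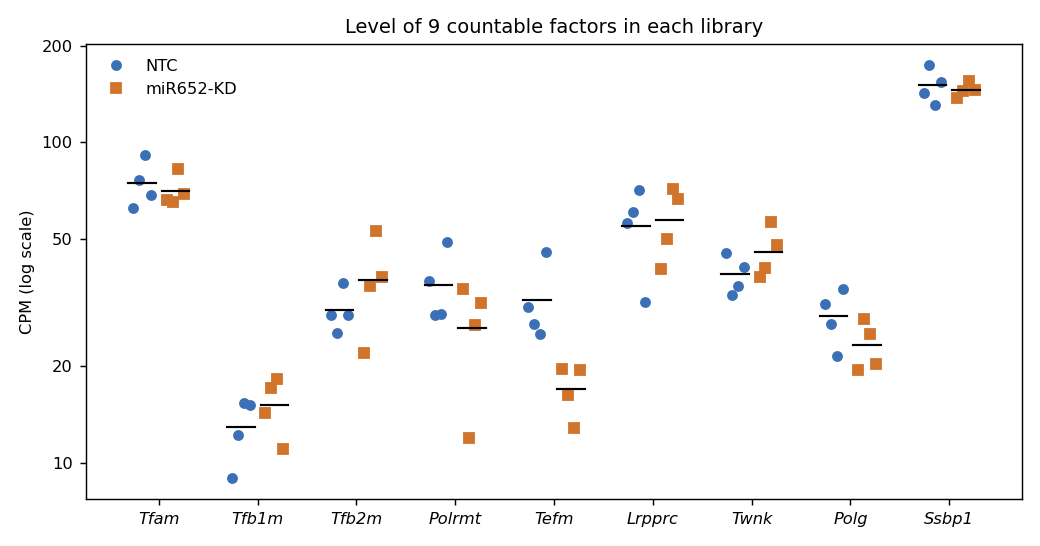
Level of the 9 countable genes in each library, in CPM on a log axis. Circles are the 4 NTC libraries, squares the 4 miR652-KD libraries, and black lines the group means. The squares of Tefm all lie below its circles, and in every other gene the groups overlap.

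Transcription factors and the polymerase came first. Tefm (ENSMUSG00000046909.9, chromosome 11, 80136678 to 80142175, minus strand), the elongation factor, stood at 30.5, 27.0, 25.2 and 45.6 CPM in NTC replicates 1 to 4 and 19.6, 16.3, 12.9 and 19.5 CPM in replicates 1 to 4 of miR652-KD. Every miR652-KD library lay below every NTC library, and NTC replicate 4 was the highest of all. The means were 32.1 ± 9.25 and 17.04 ± 3.17 CPM (SD, n = 4), from 1923 and 1148 reads in all. The log2 difference of -0.91 (SE 0.28, 95% interval -1.53 to -0.28) did not pass over all genes (edgeR adjusted p = 0.765, unadjusted p = 0.00880). Over the alternative settings tried, the adjusted p ran from 0.370 to 0.905. Without NTC replicate 4 the log2 difference was -0.68. Since the groups do not overlap, a direction kept without 1 library is no sign of stability.

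Libraries also differed in transcripts of other blood cells. All 10 erythroid markers were detected, and their summed level was 2357 to 5736 CPM in NTC, against 38.2 to 2336 CPM in miR652-KD, without overlap and lowest in miR652-KD replicate 1. Of the 10, 9 had log2 differences below 0, and edgeR called 0 and DESeq2 1, Alas2. All 10 granulocyte and monocyte markers were detected too, at 1251 to 17320 CPM in NTC, against 1371 to 6247 CPM in miR652-KD. NTC replicate 4, the library with most Tefm, was the highest at 17320 CPM. NTC replicate 3 had 11170 CPM of these markers and the least Tefm of NTC, 25.2 CPM. NTC replicate 1 had the lowest marker sum of all libraries, 1251 CPM, and 30.5 CPM of Tefm. All 9 tested markers of this list had log2 differences below 0, and edgeR called 0 and DESeq2 3, Ngp, S100a8 and S100a9. Without NTC replicates 3 and 4, only 3 of 9 tested lay below 0, so the shared direction rests on those libraries. Over all genes it tested, DESeq2 called 0.426%. No marker of either list was at 0 in all libraries. The part of these cells in the Tefm values was not tested. Macrophage and dendritic, megakaryocyte, lymphoid and mast cell markers overlapped between groups in summed level. The 10 genes of the HSC list were all detected, summing to 2022 to 2481 CPM in NTC, against 2051 to 2211 CPM in miR652-KD. Cd48, which is in the list and the sum although HSCs are known to lack it, stood at no more than 18.7 CPM. Among the 10 genes Kit was lower (log2 difference -0.34) and Ly6a higher (0.62) in miR652-KD without overlap, and neither passed in edgeR (adjusted p = 0.782 and 0.598), while DESeq2 called Ly6a (adjusted p = 0.0221). Groups failed to overlap for 4.5% of all genes. Fewer cells expressing a gene and less RNA per cell cannot be told apart in bulk libraries.

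Polrmt (ENSMUSG00000020329.12, chromosome 10, 79736123 to 79746581, minus strand), the RNA polymerase itself, stood at 37.0, 29.0, 29.2 and 48.8 CPM in NTC and 34.95, 11.9, 27.0 and 31.6 CPM in miR652-KD. Replicate 2 of miR652-KD was far below the other 7 libraries, and the remaining values overlapped. The log2 difference was -0.44 (SE 0.34, 95% interval -1.20 to 0.32, edgeR adjusted p = 0.981), and it was -0.19 without that library and -0.25 without NTC replicate 4.

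Tfb2m (ENSMUSG00000026492.11, chromosome 1, 179528055 to 179546267, minus strand), the factor that melts the promoter, stood at 28.9, 25.3, 36.3 and 29.0 CPM in NTC and at 21.9, 35.7, 52.9 and 37.9 CPM in miR652-KD. The knockdown libraries held its lowest and its highest value. Its log2 difference was 0.31 (95% interval -0.30 to 0.92, edgeR adjusted p = 0.989), 0.10 without miR652-KD replicate 3 and 0.50 without miR652-KD replicate 1.

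Tfb1m (ENSMUSG00000036983.7, chromosome 17, 3519256 to 3557781, minus strand), a relative of Tfb2m that methylates the small ribosomal RNA, was the scarcest countable gene in CPM, at 8.95 to 15.3 CPM in NTC and 11.02 to 18.2 CPM in miR652-KD. Values overlapped between groups, and the log2 difference was 0.23 (95% interval -0.51 to 0.97, edgeR adjusted p = 0.999). Leaving out NTC replicate 1 gave 0.08 and leaving out NTC replicates 3 and 4 gave 0.52. Among miR652-KD libraries, leaving out replicate 3 gave 0.14 and leaving out replicate 4 gave 0.35. The ratio of Tfb2m to Tfb1m within a library, a comparison of the relatives that no library scaling can touch, was 2.40 ± 0.589 in NTC, against 2.49 ± 0.846 after knockdown (SD, n = 4; exact two-sided permutation p = 0.971, the same after adjustment over 2 ratios).

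Tfam (ENSMUSG00000003923.14, chromosome 10, 71225464 to 71238280, minus strand), whose protein is known to track the amount of mitochondrial DNA, stood at 62.2, 76.5, 91.6 and 68.4 CPM in NTC and at 66.2, 65.1, 82.4 and 69.0 CPM in miR652-KD. The miR652-KD values all lay within the range of NTC. The log2 difference was -0.08 (SE 0.17, edgeR adjusted p = 0.999), and its 95% interval of -0.46 to 0.30 corresponds to levels of 0.728 to 1.23 times NTC.

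Among genes of messenger RNA stability, Lrpprc (ENSMUSG00000024120.12, chromosome 17, 84705247 to 84790789, minus strand) stood at 56.1, 60.6, 70.9 and 31.7 CPM in NTC and at 40.3, 49.9, 71.5 and 66.7 CPM in miR652-KD. NTC replicate 4, where Tefm and Polrmt were highest, had its lowest value. The log2 difference was 0.06 (95% interval -0.55 to 0.67, edgeR adjusted p = 0.999), and its sign changed with the library left out.

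The replication genes followed, and none of the 3 passed the test. Ssbp1 (ENSMUSG00000029911.14, chromosome 6, 40471352 to 40484700, plus strand), which binds the displaced strand, had 143, 175, 131 and 154 CPM in NTC, against 137, 145, 155 and 146 CPM in miR652-KD. Its log2 difference of -0.05 (SE 0.12) had the narrowest interval of the 9, -0.31 to 0.22, or 0.805 to 1.17 times NTC (edgeR adjusted p = 0.999). Twnk (ENSMUSG00000025209.5, chromosome 19, 45005663 to 45012762, plus strand), the helicase with a 5p seed match, had 45.2, 33.5, 35.7 and 40.9 CPM in NTC and 37.9, 40.5, 56.2 and 47.7 CPM in miR652-KD. The highest values were in miR652-KD replicates 3 and 4, and the log2 difference was 0.24 (95% interval -0.20 to 0.67, edgeR adjusted p = 0.989), or 0.13 without miR652-KD replicate 3. Polg (ENSMUSG00000039176.17, chromosome 7, 79446231 to 79466362, minus strand), the DNA polymerase with a 3p seed match, had 31.2, 27.1, 21.6 and 34.8 CPM in NTC and 19.5, 28.1, 25.1 and 20.3 CPM in miR652-KD. Values again overlapped, and the log2 difference was -0.30 (95% interval -0.85 to 0.25, edgeR adjusted p = 0.989), or -0.18 without NTC replicate 4.

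**Figure D3:**
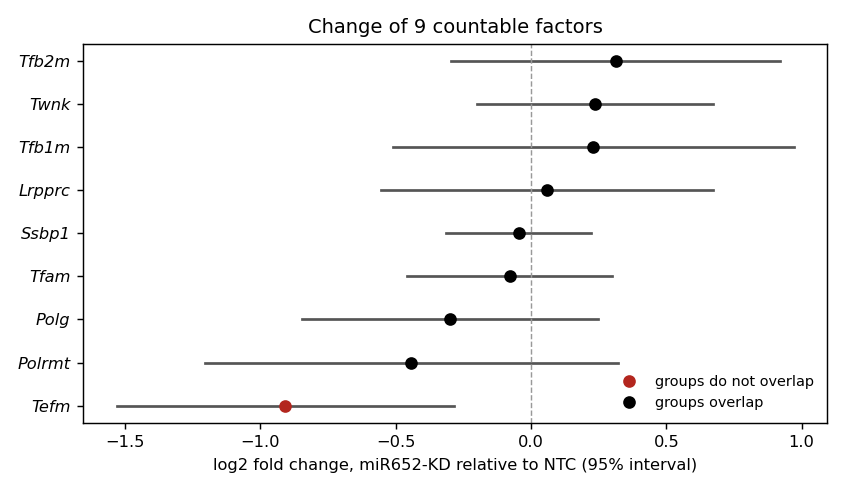
Log2 fold change of the 9 countable genes, miR652-KD relative to NTC, with 95% intervals from the edgeR fit. The interval of Tefm, -1.53 to -0.28, is the 1 that leaves out 0 before adjustment over all genes, and the narrowest are those of Ssbp1 and Tfam.

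Per length, the order of levels in NTC ran from Ssbp1 at 34.3 ± 4.25 CPM per kb of principal transcript through Tefm at 24.5 ± 7.07, Tfam at 17.9 ± 3.05, Lrpprc at 12.5 ± 3.79, Tfb2m at 12.2 ± 1.89, Twnk at 11.1 ± 1.51, Polrmt at 9.58 ± 2.48 and Tfb1m at 9.21 ± 2.15 to Polg at 3.66 ± 0.726 (SD, n = 4). Neighbours in this order lay within their combined SDs, apart from Tfb1m and Polg. In miR652-KD Ssbp1 at 33.1 ± 1.67 CPM per kb stood clear of Tfam at 16.96 ± 1.92, and Tefm at 13.02 ± 2.42 lay beside Twnk at 13.1 ± 2.35 and Lrpprc at 13 ± 3.31. Polg again was lowest, at 2.97 ± 0.521 CPM per kb, clear of Polrmt at 7.02 ± 2.71. Isoforms bear on this order. Divided by all exon bases not shared with other genes, the NTC level of Ssbp1 was 18.02 CPM per kb, that of Tefm 20.4 and that of Tfam 16.8. On this length the miR652-KD levels of Ssbp1 and Tfam were 17.4 and 15.9 CPM per kb. The NTC levels of Tfb1m and Polg were 3.72 and 2.92 CPM per kb. The separation of Ssbp1 from Tfam and that of Tfb1m from Polg therefore depend on the length used.

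The transcripts of the mitochondrial genome itself were set beside the factors that act on them. The 13 encoded protein genes took 2.37%, 2.58%, 2.35% and 2.27% of gene counts in NTC, by replicate number, against 2.02%, 1.68%, 1.96% and 1.88% in miR652-KD. The share was 2.39 ± 0.131% in NTC, against 1.88 ± 0.152% after knockdown (SD, n = 4), without overlap. For the same genes, the ratio to Tfam in CPM was 380, 337, 256 and 332 in NTC replicates 1 to 4 and 306, 257, 238 and 272 in miR652-KD. In this ratio the groups overlapped through NTC replicate 3, which had the most Tfam. The mean log2 ratio was 8.34 in NTC and 8.06 in miR652-KD, a difference of -0.27 (exact two-sided permutation p = 0.114 and 0.229 after adjustment over 2 ratios, where 0.0286 is the smallest 4 against 4 can give). The encoded genes were already known from earlier results of these data to be lower in miR652-KD. Neither this p nor the counts that follow are therefore independent support for that. All 12 tested encoded protein genes had log2 differences below 0, from -0.51 to -0.15, and edgeR called 0 of them over all genes. In NTC mt-Co2, mt-Co3, mt-Atp6 and mt-Nd3 averaged 28.6, 24.1, 22.3 and 11.9 CPM, beside 8021 CPM for mt-Co1. For mt-Nd4l the NTC libraries held 50 reads in all. How well the encoded genes can be counted was not examined. DESeq2 called 2 of the 12, mt-Co1 (log2 difference -0.34, adjusted p = 0.00588) and mt-Cytb (-0.36, adjusted p = 0.0023), against 0.426% of all genes it tested, and limma-voom called neither (adjusted p = 0.321 and 0.226). In edgeR 6 of the 12 had an unadjusted p below 0.05, against 5.99% of all genes or 3.09% on the lower side. In CPM mt-Co1, mt-Nd4 and mt-Cytb did not overlap between groups, 3 of 12 against 4.5% of all genes or 2.15% on the lower side. Most encoded genes are transcribed together, so the 12 are not separate results and these counts cannot be weighed as such.

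Transcription of the heavy strand starts ahead of mt-Rnr1 and runs through the ribosomal RNAs towards mt-Cytb. mt-Rnr1 had a log2 difference of -0.09 (95% interval -0.50 to 0.31, edgeR adjusted p = 0.999) and mt-Rnr2 of -0.23 (95% interval -0.59 to 0.13, edgeR adjusted p = 0.961). mt-Cytb, the protein gene farthest from that start, had -0.36 (95% interval -0.53 to -0.19, edgeR adjusted p = 0.470, DESeq2 adjusted p = 0.0023), and mt-Nd6, annotated on the other strand, had -0.47 (95% interval -0.91 to -0.03, edgeR adjusted p = 0.832). With the strand setting of the counting unknown, reads at mt-Nd6 may come from RNA of either strand. Without NTC replicate 2 the log2 difference of mt-Rnr1 was 0.03 and that of mt-Rnr2 -0.07, and without NTC replicates 3 and 4 they were -0.32 and -0.44. The intervals of the ribosomal RNAs contained the value of mt-Cytb, and a difference between near and far genes was not tested.

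**Figure D4:**
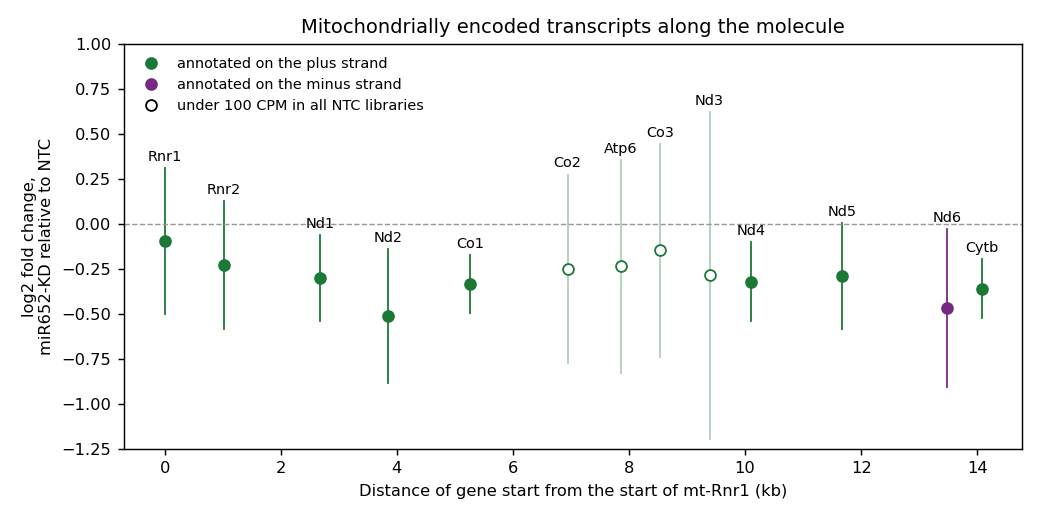
Log2 fold change of mitochondrially encoded genes, miR652-KD relative to NTC, with 95% intervals, by distance of the gene start from that of mt-Rnr1 in kb. Green marks the annotated plus strand, purple the minus strand, open circles are genes under 100 CPM in every NTC library, and mt-Nd4l and mt-Atp8, with almost no reads, are left out. All points lie below 0, from -0.09 at mt-Rnr1 to -0.51 at mt-Nd2.

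Among the lists of other pathway genes drawn up for comparison edgeR called 0, and DESeq2 1, Elac2, against 0.426% of all genes DESeq2 tested. Genes named from these lists, here and below, are those of smallest p, a choice that favours groups without overlap. Groups failed to overlap in CPM for 4.5% of all genes. Of 8 further mitochondrial transcription genes 3 lay above 0 and 5 below it, the median log2 difference was -0.13, and 0 passed. The smallest p there belonged to Mrpl12, a ribosomal protein also reported to bind the polymerase (0.27, edgeR adjusted p = 0.971), and Mterf1b, of the termination factor family (-0.73, edgeR adjusted p = 0.971). Of 10 further replication and maintenance genes 5 lay above 0 and 5 below it, the median was -0.03, and 0 passed. The nuclease and helicase Dna2 stood at 23.0 ± 2.25 CPM in NTC and 35.5 ± 8.92 CPM after knockdown (SD, n = 4), without overlap, 0.63 on the log2 scale (edgeR adjusted p = 0.803). Mpv17, an inner membrane protein needed for the upkeep of mitochondrial DNA, had -0.60 with overlap (edgeR adjusted p = 0.832). Of 10 nucleotide supply genes 7 were above 0, with a median of 0.05, and 0 passed. Samhd1, which breaks down deoxynucleotides, had -0.30 (edgeR adjusted p = 0.934).

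Of 19 RNA processing and decay genes 7 lay above 0 and 12 below it, the median was -0.05, and 0 passed in edgeR. Elac2, which trims the 3′ ends of mitochondrial and nuclear tRNAs, stood at 25.3, 31.3, 22.4 and 27.8 CPM in NTC and 57.9, 46.8, 49.2 and 56.8 CPM in miR652-KD. Every miR652-KD library lay above every NTC library, and its log2 difference of 0.98 (95% interval 0.55 to 1.42) had an edgeR adjusted p of 0.438. DESeq2 called it (adjusted p = 0.0208) and limma-voom did not (adjusted p = 0.327). Grsf1, which binds RNA in mitochondrial granules, had -0.27 (edgeR adjusted p = 0.924).

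Nuclear regulators of mitochondrial biogenesis had a median of -0.15, with 3 of 12 above 0, and 0 passed. Creb1 had -0.42 and Yy1 0.34 (edgeR adjusted p = 0.904 and 0.918). Of 14 protease and import genes 10 were above 0, with a median of 0.07, and 0 passed. The matrix protease subunit Clpp went without overlap from 163 ± 17.6 CPM in NTC to 212 ± 29.8 CPM after knockdown (SD, n = 4), 0.38 on the log2 scale (edgeR adjusted p = 0.779), and the import receptor Tomm70a had 0.32 (edgeR adjusted p = 0.832). Of 12 genes taken as a sign of mitochondrial mass 5 lay above 0 and 7 below it, the median was -0.11, and 0 passed. The prohibitin Phb2 stood at 182 ± 10.2 CPM in NTC and 247 ± 26.1 CPM after knockdown (SD, n = 4), without overlap, at 0.44 (edgeR adjusted p = 0.598), and the fusion gene Mfn1 had -0.51 (edgeR adjusted p = 0.869).

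**Figure D5:**
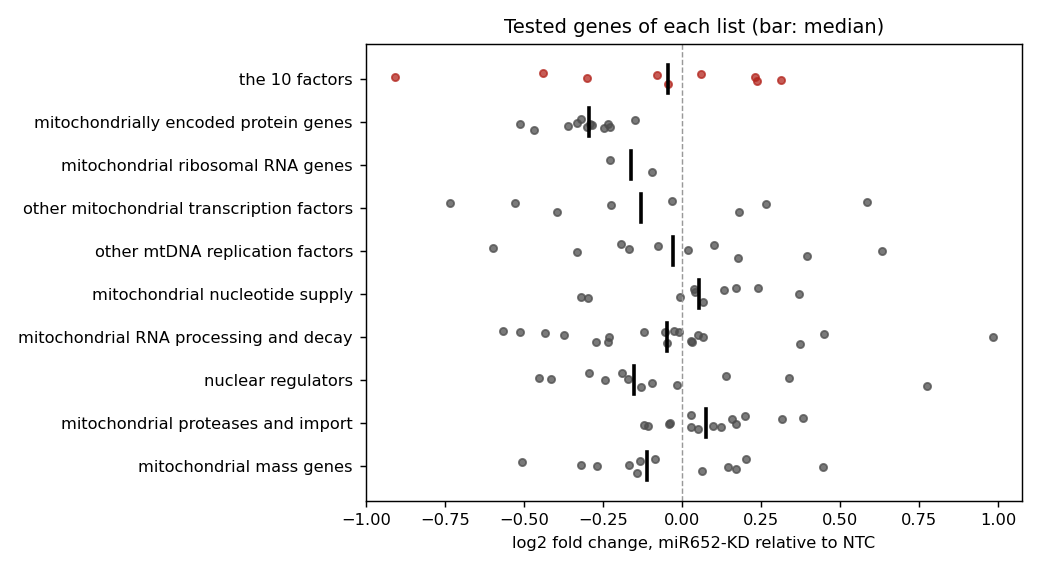
Log2 fold change of each tested gene, miR652-KD relative to NTC, by list, with vertical bars at the medians. The 9 countable factors, in red, spread from -0.91 to 0.31 around a median of -0.05, and the encoded protein genes lie together around -0.30.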

How the data were processed

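The authors deposited raw read counts per gene for 8 Smart-seq2 libraries of mouse HSCs, 4 NTC and 4 miR652-KD. Per the submitters' processing notes, HISAT2 2.1.0, HTSeq 0.11.2, DESeq2 and the build mm10 were used. Which annotation and which strand setting served for counting is not given in the sources used here. Of 55487 genes in each file, 55394 matched GENCODE M21, which gave symbols and coordinates. Lines for reads without a gene (9.69% to 16.9% with no feature, 8.94% to 12.3% ambiguous) stayed out of library sizes. Totals were 14017632 to 19894821 counts.

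Counts were tested with edgeR 4.0.16 in R 4.3.3 (TMM scaling, robust quasi-likelihood F test, genes kept at a minimum count of 10 and a total of 15), with Benjamini-Hochberg adjustment over 14360 genes and a threshold of 0.05. The script was tested on simulated data. CPM carry no TMM factor. Ratios were compared by exact permutation over 70 splits (Python 3.11.15, scipy 1.17.1). Alternatives were other scalings, DESeq2 1.42.0, limma 3.58.1, other filters, a replicate block and left-out libraries. All 10 factors were named, and of each further list the 2 tested genes of smallest p, with mt-Rnr1, mt-Rnr2, mt-Nd6 and mt-Cytb. Alternatives for the encoded and list genes were added after the data were seen. Some genes that this rule selects are not reported here. Genes and lists were chosen with earlier results of these data known.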

Additional observations from a re-analysis of the deposited data

How the results depend on the processing

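The number of factors past the threshold was 0 under each of the 19 alternatives. Over all genes 6 were called, against 61 with DESeq2, 0 without NTC replicates 3 and 4, and 0 to 0 when each library was left out in turn (edgeR, with 789 to 992 genes at an unadjusted p below 0.05). The cause was not tested. The replicate block called 0 genes, with 733 at an unadjusted p below 0.05. Same-numbered libraries did not deviate together (correlations -0.033 to -0.0101), so the numbers were not taken as pairs. With the block Tefm had a log2 difference of -0.89 (edgeR adjusted p = 0.905). With 1 library left out, the log2 difference ran from -0.167 to 0.0367 for Tfam, -0.107 to 0.0505 for Ssbp1 and -0.124 to 0.212 for Lrpprc. It changed sign for Tfam without NTC replicate 3 (0.0367) and without NTC replicates 3 and 4 (0.0310), for Ssbp1 without NTC replicate 2 (0.0505), and for Lrpprc without NTC replicate 4 (-0.12), miR652-KD replicate 3 (-0.06), miR652-KD replicate 4 (-0.03) and NTC replicates 3 and 4 (-0.0265). The log2 difference of the Tfb2m to Tfb1m ratio ran from -0.16 to 0.23 with 1 library left out, with reversals at -0.04 (NTC replicate 2), -0.08 (NTC replicate 4), -0.08 (miR652-KD replicate 3) and -0.16 (miR652-KD replicate 4), and was -0.12 without NTC replicates 3 and 4. With 1 library left out, Tfb1m ran from 0.08 to 0.35, Tfb2m from 0.10 to 0.50, Polrmt from -0.61 to -0.19, Twnk from 0.13 to 0.32, Polg from -0.41 to -0.18 and mt-Rnr1 from -0.252 to 0.0261, its one reversal being without NTC replicate 2. DESeq2 called mt-Cytb (adjusted p = 0.0023), mt-Co1 (0.00588), Elac2 (0.0208) and Ly6a (0.0221), which no other alternative did. The log2 difference of encoded transcripts per Tfam stayed between -0.42 and -0.20. The Slirp to Lrpprc ratio and its alternatives were not run.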

Other observations

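Genes whose level followed that of a factor most closely over the 8 libraries were sought among 7831 protein-coding genes averaging 20 CPM or more. The measure was the root mean square difference of log2(CPM + 1) after each gene's mean was subtracted. It is a description that rests on shared libraries and depth. For Tfam the nearest were Tuba4a at 0.0756, Chrac1 at 0.0815 and Selp at 0.0833, beside a spread of Tfam around its own mean of 0.176. For Polrmt they were Abraxas1 at 0.181, Slc22a18 at 0.227 and Calcrl at 0.230, beside 0.527. The first of these also had its lowest value, 17.2 CPM, in miR652-KD replicate 2. For Lrpprc, Smyd5 at 0.144 and 4930453N24Rik at 0.165 were among the 3 nearest, beside 0.383.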
